A study of Mus musculus with 8 samples.

Results

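Chromatin accessibility in mouse hepatocytes at 96 h after PHx (partial hepatectomy, removal of part of the liver by surgery) was compared with that at 48 h. Accessibility was read from ATAC-Seq peak lists, in which the Tn5 transposase cuts and tags open DNA. The 4 lists of the comparison, 2 at 48 h and 2 at 96 h, came from a series of 8 that also holds 2 lists from undamaged liver (0 h) and 2 from 72 h after PHx. The labels give C57BL/6 mice, 10-12 weeks old and on a normal diet, with no transgene or drug named. Per the study's methods they were male C57BL/6J mice, for which a slightly younger age is given at the time of surgery. Hepatocytes were freed by collagenase perfusion in 2 steps, and nuclei extracted from the isolate went into the libraries, with no sort for a marker named. The study took hepatocytes from several mice per time. Its results section calls the bulk preparations at 0 h and 48 h biological replicates, and gives more per time than the 2 lists held here. The labels do not tie replicates 1 and 2 to particular animals. The 4 lists carry the same flow-cell and lane tag in their names, and 72 h replicate 2 carries another.

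The unit of comparison was the region. The distinct intervals of a list (117943 and 139376 at 48 h, 144736 and 127561 at 96 h, replicates 1 and 2) were ranked by the peak caller's −log10 p and given a percentile, where 100 is the strongest interval of its list and 0 means no interval. Merging the 4 lists gave 244548 regions, of which 110952 had an interval in at least 2 lists and were tested. The 8 lists together merged into 315767 regions. A region was called higher at 96 h when both 96 h percentiles lay at least 10 points above both 48 h percentiles, and lower in the reverse case. The gap is the distance between the nearest values of the groups. The lists hold no reads, so depth is unknown and percentiles compare ranks, not amounts of signal. The −log10 p of the interval at rank 50000 was 8.05 and 8.62 at 48 h but 14.5 and 8.29 at 96 h, so 96 h replicate 1 stood apart from the other three. In a bulk assay, fewer cells of a type and less signal per cell cannot be told apart.

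After PHx the remaining hepatocytes re-enter the cell cycle, and the divisions of the early days give way to a return of the differentiated state. Dividing cells need much protein synthesis, which draws on transfer RNAs. Transfer RNA (tRNA) genes are short genes that RNA polymerase III transcribes from a promoter inside the gene, many lie in clusters, and active copies are open to Tn5. AP-1 is the dimeric factor of the FOS and JUN families, which growth and stress signals induce, and it binds the palindrome TGANTCA. C/EBP and FOXA factors are regulators of the hepatocyte's differentiated genes, and CTCF marks insulators and loop anchors.

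Windows of 200 bp centred on the strongest summit are shown for the kinds of region that the results turn on. They come from RefSeq's GRCm38.p6 sequence, plus strand, 5′ to 3′, and were picked by hand from the windows with the largest gaps of their kind after these results had been seen. In the windows of 4 regions lower at 96 h, the capitals mark the tRNA gene, which lies on the minus strand except in n-TMcat14 and is cut off by the end of the window in n-TYgta3.
n-TLtaa2, chr13:21847942-21848141: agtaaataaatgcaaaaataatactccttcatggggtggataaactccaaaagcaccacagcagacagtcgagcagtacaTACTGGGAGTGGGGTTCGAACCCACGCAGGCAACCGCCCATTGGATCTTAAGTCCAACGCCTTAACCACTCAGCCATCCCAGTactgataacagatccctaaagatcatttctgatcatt
n-TYgta3, chr13:23425528-23425727: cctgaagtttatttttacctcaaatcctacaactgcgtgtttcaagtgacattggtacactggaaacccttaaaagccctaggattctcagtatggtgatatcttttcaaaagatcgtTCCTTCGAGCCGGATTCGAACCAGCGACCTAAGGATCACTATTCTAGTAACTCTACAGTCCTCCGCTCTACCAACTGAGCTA
n-TAagc12, chr13:23400699-23400898: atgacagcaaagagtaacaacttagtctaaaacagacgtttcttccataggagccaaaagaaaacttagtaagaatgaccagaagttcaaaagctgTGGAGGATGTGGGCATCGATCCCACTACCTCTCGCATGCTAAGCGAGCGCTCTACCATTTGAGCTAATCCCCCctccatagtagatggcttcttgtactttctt
n-TMcat14, chr13:21167599-21167798: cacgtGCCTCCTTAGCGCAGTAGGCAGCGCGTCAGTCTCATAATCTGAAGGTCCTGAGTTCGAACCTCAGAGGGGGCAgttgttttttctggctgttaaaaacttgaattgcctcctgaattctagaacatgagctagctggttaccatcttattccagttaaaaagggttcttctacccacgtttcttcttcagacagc

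In a pair of windows lower at 96 h and 1 window higher at 96 h, the capitals mark a match to the AP-1 letters TGANTCA or to the C/EBP letters TTGCNNCAA, read on either strand. Each window is named by the gene that holds it.
Bcas3 intron, AP-1, chr11:85776969-85777168: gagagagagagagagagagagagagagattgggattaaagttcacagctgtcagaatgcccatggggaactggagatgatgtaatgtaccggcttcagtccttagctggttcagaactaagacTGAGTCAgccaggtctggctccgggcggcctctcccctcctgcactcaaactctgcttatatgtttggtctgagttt
Taf5l intron, AP-1, chr8:124014824-124015023: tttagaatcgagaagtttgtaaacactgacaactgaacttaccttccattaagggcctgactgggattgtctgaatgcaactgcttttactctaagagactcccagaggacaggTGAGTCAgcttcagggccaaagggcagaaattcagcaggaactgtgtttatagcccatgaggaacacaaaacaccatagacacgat
Hsd17b2 intron, C/EBP, chr8:117736879-117737078: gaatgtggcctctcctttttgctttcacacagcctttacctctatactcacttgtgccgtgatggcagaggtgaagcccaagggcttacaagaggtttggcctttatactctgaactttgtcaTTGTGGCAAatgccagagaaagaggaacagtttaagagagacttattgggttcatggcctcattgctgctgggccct

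The question behind the comparison was how the open chromatin of regenerating hepatocytes differs between the time of peak proliferation and a later time. Of the 110952 regions, 10839 (9.77%) were called higher and 4782 (4.31%) lower at 96 h. Their total, 15621, lay between the totals of the crossed pairings, in which each side held 1 list of each time. Pairing A set both replicates 2 against both replicates 1 and gave 5374 regions higher and 6567 lower (11941). Pairing B set the 2 longer lists, 48 h replicate 2 and 96 h replicate 1, against the 2 shorter ones and gave 14627 higher and 2635 lower (17262). An exact permutation over the 3 ways of forming 2 pairs gave p = 0.667 for the total. The excess of higher over lower calls was thus exceeded when lists were paired by length, and without 96 h replicate 1 it turned, with 12325 regions higher and 17360 lower.

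When each list was reduced to its 50000 strongest intervals, 52589 regions were tested and the directions were nearly balanced, with 4049 higher (7.7%) and 3935 lower (7.48%). The total of 7984 was above both crossed totals (6512 and 6997) and 1.18 times their mean. The exact permutation p was 0.33, the smallest that 3 pairings can give, so this design could not reach 0.05. Of the regions called from the full lists, 1843 higher ones (17.0%) and 976 lower ones (20.4%) were also called from the strongest intervals, where they made up 45.5% and 24.8% of the calls.

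**Figure D1:**
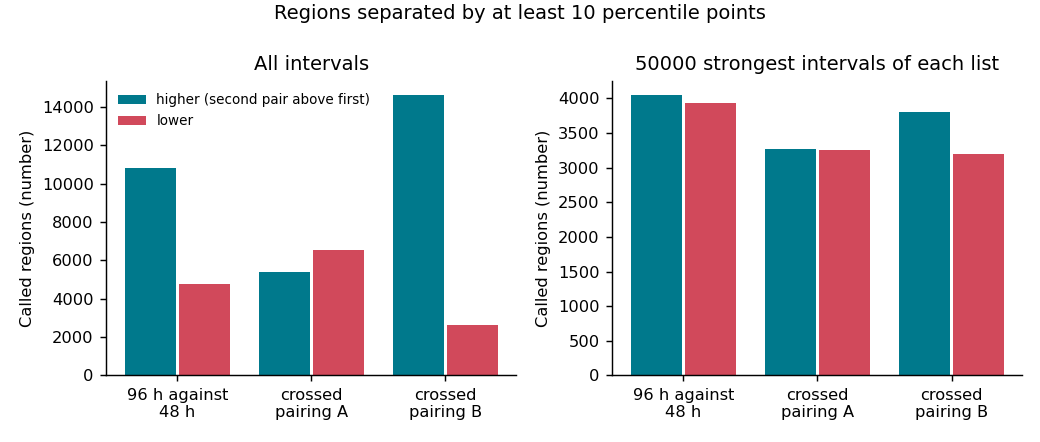
Number of regions called higher (teal) and lower (red) for 96 h against 48 h and for the crossed pairings A and B, from all intervals (left) and from the 50000 strongest of each list (right). With all intervals, pairing B holds the tallest bar (14627 higher), and with equal list length the 96 h against 48 h bars (4049 and 3935) are the tallest of each color.

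Calls were mostly regions with an interval missing somewhere. Of the regions higher at 96 h, 48.7% were absent from both 48 h lists and 27.0% were present in all 4 lists. Of those lower at 96 h, 43.3% were absent from both 96 h lists and 31.0% were present throughout. The share called higher was 19.1% among regions with 2 intervals, 13.2% with 3 and 4.63% with 4, and the share called lower was 7.48%, 6.15% and 2.34%. The median gap was 21.97 points for higher and 18.9 for lower regions, and 642 and 208 regions had a gap of 50 points or more. At the threshold, the smallest called gaps were 10.0007 and 10.0098 points and the largest gaps left out were 9.99776 and 9.99584 (higher and lower).

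Regions at tRNA genes were called in the lower direction only. This set was chosen after tRNA genes had been seen among the windows of the most strongly lower regions, so its counts are a description with no test. RefSeq annotates 403 tRNA genes, of which 248 lay in 210 tested regions. Of these regions 61 (29.0%) were called lower at 96 h and 0 were called higher, beside 4.31% and 9.77% of all tested regions. The crossed pairings gave 7 higher and 4 lower (A) and 3 higher and 5 lower (B). Among the 50000 strongest intervals, 72 of 162 tRNA gene regions (44.4%) were lower and 0 higher, beside 7.48% and 7.7% of all regions there. The crossed pairings gave 3 higher and 1 lower (A) and 3 higher and 9 lower (B) in this setting.

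Counted without the threshold, the 210 regions leaned the same way. The mean 96 h percentile was below the mean 48 h percentile in 184 of the 210 regions (87.6%), against 43.6% of all tested regions. Both 96 h values were below both 48 h values in 133 tRNA gene regions and above them in 7, while over all tested regions the shares were 12.7% below and 21.8% above. Of the 61 lower regions, 39 had an interval in all 4 lists and 11 were absent from both 96 h lists.

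The median percentile of the 210 regions was 87.4 and 86.3 in the 48 h lists, against 70.3 and 71.5 in the 96 h lists. Both 96 h medians were thus below both 48 h medians. At 0 h the medians were 76.9 and 74.8, and at 72 h they were 72.9 and 84.1, so the 48 h lists held the highest pair and the 72 h replicates differed from each other by more than the 0 h replicates did. In the same lists the median of protein-coding promoters moved little, with 80.5 and 84.0 at 48 h and 84.1 and 83.8 at 96 h. On the peak caller's own scale, which depends on depth, the median −log10 p of the tRNA gene regions was 22.9 and 22.1 in the 48 h lists but 17.5 and 12.4 in the 96 h lists. These regions had an interval in 202 and 207 cases at 48 h and in 184 and 183 at 96 h.

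**Figure D2:**
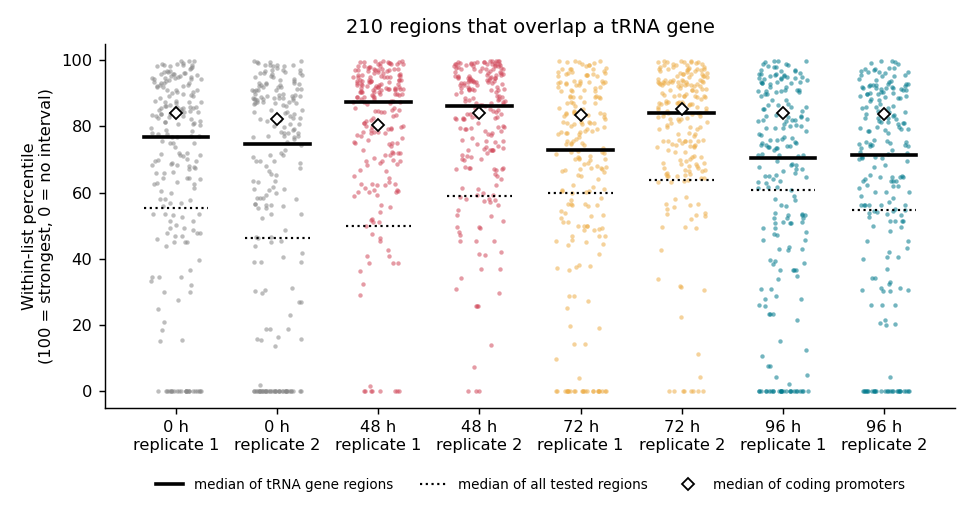
Within-list percentile (vertical axis, 100 = strongest, 0 = no interval) of each of the 210 tRNA gene regions in the 8 lists (points), with the median of these regions (bars), of all tested regions (dotted) and of coding promoters (diamonds). The bars stand at 87.4 and 86.3 at 48 h, above the diamonds, and at 70.3 and 71.5 at 96 h, below them.

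The extreme members were single tRNA genes on chromosome 13. The region of n-TLtaa2, a leucine tRNA gene, stood at percentiles 79.3 and 87.7 at 48 h, had no interval in the 96 h or 0 h lists, and was present at 84.1 in 72 h replicate 2 only of the 72 h lists. The region of n-TYgta3, a tyrosine tRNA gene, stood at 91.7 and 86.2 at 48 h and at 10.5 and 0 at 96 h, with 53.4 and 15.8 in the 0 h lists and 54.5 and 53.9 in the 72 h lists. The region of n-TAagc12, an alanine tRNA gene, had 70.4 and 70.1 at 48 h and no interval in the other 6 lists. That the 48 h and 96 h values of a region do not overlap is part of the call. The serine gene n-TSaga7 (64.4 and 59.3 at 48 h), the arginine gene n-TRtct3 (60.2 and 57.4) and the methionine gene n-TMcat14 (51.1 and 57.9) also had no interval at 96 h. These 6 regions lie in intergenic DNA by GENCODE M21 basic, at chr13:21847915-21848158, chr13:23425450-23425786, chr13:23400694-23400909, chr13:23500818-23501092, chr13:21917061-21917286 and chr13:21167554-21167810 in mm10.

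Chromosome 13 holds the largest tRNA gene cluster of the annotation, with 104 of the 403 genes between 21 and 24 Mb, where they alternate with histone, zinc finger and vomeronasal receptor genes. Of the 77 tested tRNA gene regions in the cluster 41 (53.2%) were lower at 96 h, against 20 of 133 (15.04%) elsewhere in the genome. The other 153 regions of the same stretch gave 10 higher and 11 lower (7.19%). In a scan of 1688 bins of 1 Mb with at least 20 tested regions, also made after the cluster had been seen, chromosome 13 from 21 to 22 Mb had the highest share of lower regions of any bin, 24 of 83 (28.9%). The highest shares of lower regions in the crossed pairings were 22.7% (A) and 23.8% (B). The adjoining bins gave 4 of 20 from 22 to 23 Mb and 24 of 127 (18.9%) from 23 to 24 Mb.

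**Figure D3:**
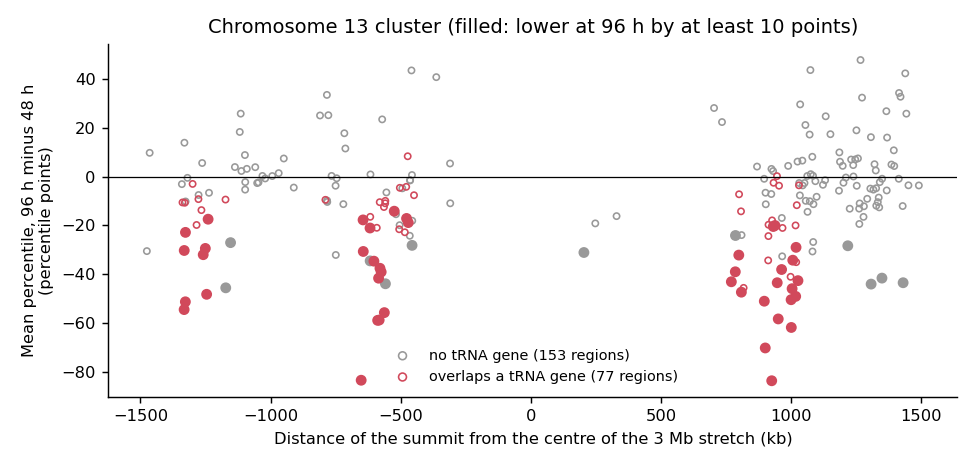
Mean 96 h minus mean 48 h percentile (vertical axis, percentile points) of the 230 tested regions in the chromosome 13 cluster by the distance of the summit from the centre of the stretch (horizontal axis, kb), red where the region overlaps a tRNA gene and filled where it was called lower. The 41 filled red points lie within the groups of tRNA genes on both sides of the centre, and the 11 filled gray points are regions with no tRNA gene.

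Lower calls were spread over the amino acids. At least 1 region was lower for 18 of the 20 tRNA classes, with 8 of 18 alanine, 8 of 11 isoleucine, 7 of 18 serine and 6 of 18 arginine regions, but 1 of 18 glycine regions. Histidine and phenylalanine had 6 tested regions each and 0 lower calls, and among the 50000 strongest intervals all 20 classes had at least 1. Many tRNA genes are identical copies, and reads from such copies cannot be assigned to 1 of them: 238 of the 403 genes share their sequence with another. Regions of genes with a sequence of their own were lower in 20 of 66 cases (30.3%) and regions of copied genes in 41 of 144 (28.5%). Regions more than 1 kb from a coding transcription start site (TSS) were lower in 57 of 181 cases, and those within 1 kb, where a promoter adjoins, in 4 of 29.

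Promoters of gene groups tied to growth gave few lower calls. Those of histone genes, which are used in S phase, gave 4 higher and 2 lower of 56, and those of ribosomal protein genes 1 higher and 3 lower of 101. Protein-coding promoters as a whole gave 670 higher (3.83%) and 479 lower (2.74%) of 17497. Of the other genes that RNA polymerase III transcribes, Rny1 (a Y RNA) was called lower, with 81.9 and 92.3 at 48 h and 64.5 and 0 at 96 h. Rn7sk, the RNA that holds back transcription elongation, stood at 99.8 and 99.8 at 48 h and at 97.1 and 93.1 at 96 h. Rmrp, the RNA of a ribonuclease for ribosomal RNA, stood at 97.9 and 97.8 and at 95.1 and 95.1. Both were below their 48 h values in each 96 h list by less than the 10 points that a call needs. The same held for Vaultrc5 (99.4 and 99.3, then 94.9 and 97.0) and, by a small margin, for Rpph1 (99.96 and 99.94, then 99.76 and 99.84). The 48 h and 96 h values of Rny3 overlapped. A second region beside each of Rn7sk, Rmrp and Rny1, which does not overlap the gene itself, had 48 h and 96 h values that overlapped.

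Regions lower at 96 h also held more AP-1 matches. TGANTCA occurred in the 200 bp window of 12.2% of lower and 7.19% of higher regions, against 8.13% of all tested regions, a difference of −5.03 percentage points. The crossed pairings gave 0.53 and −1.12. Among the 50000 strongest intervals the shares were 11.1% and 6.15% (all tested 7.51%), a difference of −4.96 against −0.19 and 0.08 in the crossed pairings. Seen from the motif, 11.1% of AP-1 regions were lower and 6.30% higher among the strongest intervals, beside 7.48% and 7.7% of all regions there. In the full lists 8.63% of AP-1 regions were higher and 6.47% lower, beside 9.77% and 4.31% of all tested regions. Without 48 h replicate 1 the difference in the full lists was −2.78 points, and without 96 h replicate 1 it was −2.98.

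The AP-1 share followed the size of the gap on the lower side. It was 14.4% in regions lower by 50 points or more, 12.6% from 20 to 50, 11.7% from 10 to 20, and 8.09% in regions whose groups overlapped. On the higher side it did not fall with the gap, at 6.55% under 10 points, 6.84% from 10 to 20, 7.46% from 20 to 50 and 7.48% from 50. In lower regions with a match, 39.6% had it within 25 bp of the summit, against 27.9% in higher regions and 32.0% in all tested regions with a match. The share was 13.1% of lower and 7.30% of higher regions when only regions more than 1 kb from a TSS were used.

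Over whole lists the AP-1 share varied little. It was 7.98% and 7.82% of the 50000 strongest intervals at 48 h and 7.10% and 7.19% at 96 h, with 7.40% and 6.81% at 0 h and 7.22% and 7.57% at 72 h. Both 48 h lists were above the other 6. The window in an intron of Bcas3 stood at 68.6 and 73.1 at 48 h and had no interval at 96 h or 0 h, with 49.3 and 0 in the 72 h lists. The window in an intron of Taf5l stood at 73.3 and 62.1 at 48 h and had none at 96 h, with 48.97 and 0 in the 0 h lists and 59.8 and 64.3 at 72 h.

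**Figure D4:**
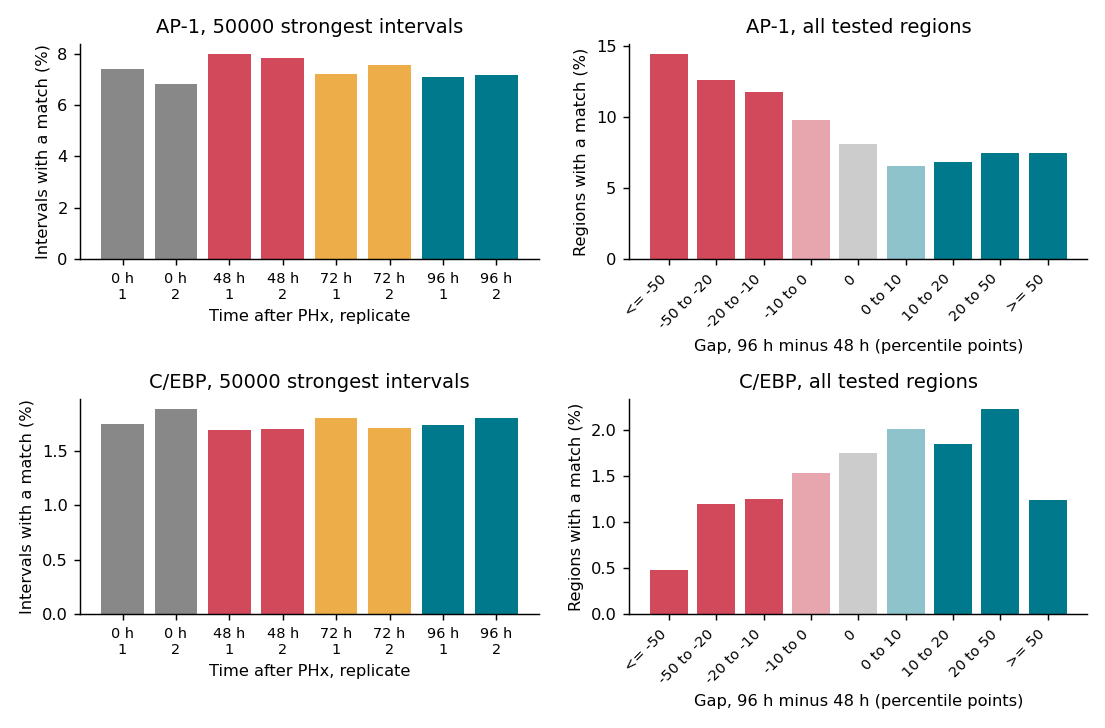
Share of windows with an AP-1 match (top) or a C/EBP match (bottom): left, percent of the 50000 strongest intervals of each list; right, percent of tested regions by gap class (percentile points, negative where 96 h was lower, 0 for overlapping groups). The AP-1 bars fall from 14.4% at the left to 6.55% in the class higher by under 10 points, then rise slightly to 7.48% at the right. The C/EBP bars stand between 0.48% and 2.23%.

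The C/EBP and FOXA letters leaned the other way, with smaller differences. TTGCNNCAA occurred in 2.002% of higher and 1.19% of lower regions (all tested 1.76%), and in 2.69% and 1.27% among the strongest intervals, while the crossed differences lay between −0.26 and 0.05 points. The full-list difference of 0.81 points fell to 0.26, 0.52 and 0.32 when 48 h replicate 1, 48 h replicate 2 or 96 h replicate 2 was left out. Among the strongest intervals 12.2% of the 891 C/EBP regions were higher and 5.61% lower, beside 7.7% and 7.48% of all regions there. The window in an intron of Hsd17b2, a steroid dehydrogenase, had no interval at 48 h and stood at 64.9 and 73.8 at 96 h. Its values were 61.5 and 55.7 at 0 h, and 69.2 and 69.96 in the 72 h lists. TGTTTAC, the FOXA letters, occurred in 5.20% of higher and 4.71% of lower regions (all tested 4.69%), and in 6.12% and 4.35% among the strongest intervals, where the crossed differences were −0.58 and −1.05. Neither share grew steadily with the gap. In regions higher by 20 to 50 points C/EBP was at 2.23% and FOXA at 5.03%. In the 642 regions higher by 50 points or more they were at 1.25% and 4.52%, below all tested regions.

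CTCF matches were in 2.77% of higher and 4.45% of lower regions, and in 4.40% and 11.03% among the strongest intervals. There pairing B differed by 6.57 points in the opposite sense, so the CTCF difference of −6.63 was of the size found between lists of mixed time. Of the 20 motifs, AP-1, C/EBP and FOXA lay outside both crossed pairings in full lists, in the strongest intervals and in distal regions of each. For FOXA in distal regions of the full lists the margin was small, 0.28 against 0.12 and −0.04 points. HNF4 (CAAAGTCCA, 1.35% of higher and 1.11% of lower regions) did so in the full lists only. E-box, D-box and IRF also lay outside in the full lists, and CTCF, ONECUT, STAT, NRF1, TEAD and NF1 in the strongest intervals. With 3 pairings, the time pairing can be outermost without any change, so this position is no test.

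**Figure D5:**
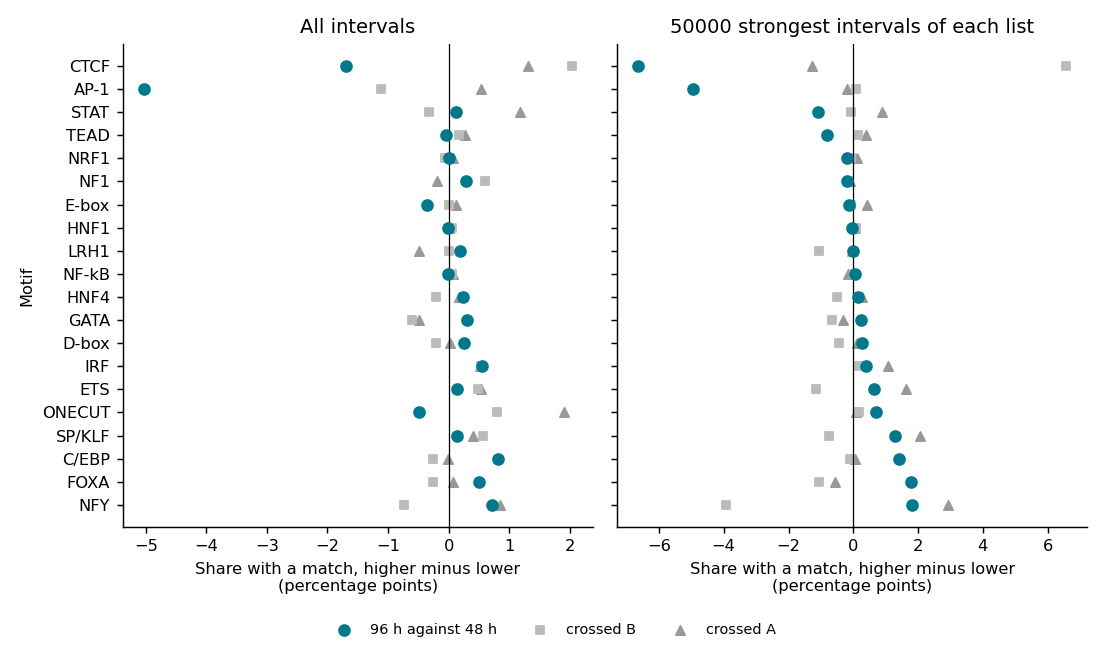
Difference in the share of regions with a match, higher minus lower (horizontal axis, percentage points), for 20 motifs in 96 h against 48 h (circles) and the crossed pairings A (triangles) and B (squares), for all intervals (left) and the 50000 strongest (right). AP-1 stands at −5.03 and −4.96, away from both crossed values, while the CTCF circle at −6.63 on the right faces a square at 6.57.

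Called regions were mostly distal in each pairing. Promoters, within 1 kb of a TSS, made up 9.95% of higher and 14.1% of lower regions, against 19.8% of all tested regions. The crossed pairings gave 12.2% and 11.1% (A) and 12.5% and 11.9% (B), so a low promoter share went with being called, whichever lists were paired. The difference of −4.16 points between directions compared with 1.07 and 0.67 in the crossed pairings. Leaving out 48 h replicate 2 brought it to −0.20, and leaving out 96 h replicate 1 to −2.02. Among the strongest intervals the promoter shares were 19.1% and 19.8%, with crossed differences of 8.45 and −5.82, so no difference between directions stood out there. Introns held 52.6% of higher and 51.1% of lower regions (46.2% of tested), and intergenic DNA 32.8% and 29.97% (29.6% of tested). The median distance to a coding TSS was 28195 bp for higher, 19526 bp for lower and 19718 bp for all tested regions.

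The 0 h and 72 h lists were not used to call regions. Among the strongest intervals, regions higher at 96 h had median percentiles of 39.3 and 39.8 at 0 h and 42.5 and 36.4 at 72 h. Regions lower at 96 h had 29.2 and 26.2 at 0 h and 25.6 and 32.9 at 72 h. In each of these 4 lists the higher set stood above the lower set, by 3.48 to 16.9 points, while the crossed differences lay between −8.81 and 5.26. With the full lists the differences (6.82, 17.6, 10.9 and 3.97) were of the size found in pairing B (8.08, 17.6, 8.04 and 6.49). Averaged over the 2 lists of a time, they changed sign with any gap above 0 (−1.93 at 0 h and −1.95 at 72 h) and without 96 h replicate 1 (−0.52 and −2.47).

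The 6 higher regions with the largest gaps had no interval in either 48 h list. The first lies in an intron of Itpr1, which encodes a calcium channel of the endoplasmic reticulum (chr6:108435490-108436033), and stood at 79.2 and 90.1 at 96 h, with a fold enrichment of 9.66 and 12.7. It was as strong at 0 h (89.6 and 76.7) and present at 72 h (82.6 and 58.4), so of the 8 lists only the 48 h lists lacked it. A region near Prlhr (chr19:60417690-60418105), with a CTCF match, stood at 79.0 and 85.1 at 96 h, and regions near Ranbp3l, Mamdc2 and Gm13691 and in an intron of Sorcs3 had gaps of 73.4 to 75.3 points. All 6 had an interval in every 0 h and 72 h list.

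Of the 6 lower regions with the largest gaps, 2 were the leucine and tyrosine tRNA genes above. The first lies in a coding exon of Depp1, within Rassf4 (chr6:116651843-116652115), and stood at 84.2 and 87.8 at 48 h with no interval at 96 h. It had 50.9 and 0 at 0 h and 0 and 58.8 at 72 h, so replicates of the flanking times disagreed on its presence. Regions near Wasf2, an actin regulator, Cldn11, a tight junction protein, and Amn1 stood between 73.3 and 81.7 at 48 h with no interval at 96 h. Each of these 3 was present at 0 h in replicate 1 (56.3 to 59.6) and absent in replicate 2.

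Several concordant regions near the same gene were more frequent in the higher direction. At least 3 higher regions and no lower one were found for 493 of 17610 genes with a tested region (2.8%), and the reverse for 41 (0.233%). The crossed pairings gave 111 and 163 genes (A) and 1091 and 10 (B), and the 50000 strongest intervals 66 and 73 of 15930, against 60 and 47 and 73 and 42. The excess of genes with higher regions was thus exceeded in pairing B. With all lists cut to the length of the shortest, 246 and 106 genes were found, against 114 and 158 (A) and 338 and 63 (B). Without 96 h replicate 1 the direction turned, with 210 genes higher and 550 lower. Without the tRNA gene regions the lower count was 29 instead of 41 (62 instead of 73 in the strongest intervals).

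Among the 12 genes with most higher regions, Sorcs3, a sorting receptor of the sortilin family, had 13 of 27 regions higher and 0 lower, against 0 higher and 1 lower in pairing A and 4 higher and 0 lower in pairing B, and 6 of its 7 regions were higher among the strongest intervals. Its intronic region at chr19:48413926-48414181, which holds a pair of AP-1 matches, had no interval at 48 h and stood at 75.8 and 73.4 at 96 h. It was present at 0 h (45.03 and 33.6) and in the 72 h lists (50.0025 and 54.9). Trib2, a pseudokinase, had 10 of 22 regions higher, against 1 higher in each crossed pairing, and 2 of 9 among the strongest intervals. Arid1b, a subunit of the SWI/SNF remodeling complex, had the most higher regions, 15 of 89, but 5 and 9 in the crossed pairings, and 1 higher and 1 lower of 35 among the strongest intervals.

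The others were Ptbp2, a splicing regulator (12 of 48 regions higher), Sash1 (11 of 56), Lrmda (10 of 30), Serpinb8, a protease inhibitor (9 of 23), and Ets1, a transcription factor (9 of 36). Bcl2l14 of the BCL-2 family (8 of 38), Nrp1, a coreceptor for VEGF and semaphorins (8 of 45), Cdc7, a kinase that starts DNA replication (7 of 13), and Zadh2 (7 of 16) completed the set. Pairing B alone gave 7 higher regions at Nrp1, 6 at Sash1, 6 at Bcl2l14 and 5 at Ets1. The crossed pairings gave 0 and 0 higher at Zadh2, 2 and 0 at Serpinb8, 1 and 2 at Cdc7, 2 and 4 at Ptbp2 and 0 and 4 at Lrmda (A and B). From the strongest intervals alone, Bcl2l14 had 1 higher and 3 lower of 15 regions, Ets1 had 1 higher and 2 lower of 10, and Lrmda had 0 of 11 in either direction. The other 6 genes of this set had 1 to 3 higher regions and 0 or 1 lower there.

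Of the 12 genes with most lower regions, 7 lie in the chromosome 13 cluster and their calls were tRNA genes. Zfp184, a zinc finger gene, had 8 of 15 regions lower, 7 of them at tRNA genes. Abt1, an activator of basal transcription, had 5 of 16, all 5 at tRNA genes, and Vmn1r223 and Hist1h2br had 5 of 7 each, 4 of them at tRNA genes. For Btn2a2 (4 of 6), Gpx5 (4 of 6) and Trim27 (4 of 13) each of the 4 lower regions was at a tRNA gene. At these 7 genes the nearest-gene rule thus named neighbors of the tRNA genes.

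The other 5 had no tRNA gene in their lower regions. Esr1, the estrogen receptor, had 5 of 32 lower, including its promoter at chr10:4611295-4613054, which stood at 85.8 and 93.1 at 48 h and at 71.2 and 65.4 at 96 h. Of these 5 regions 3 held an AP-1 match. Avpr1a, a vasopressin receptor, had 5 of 28 lower, of which the largest gap was at chr10:122342417-122342755 (62.6 and 83.6 at 48 h, no interval at 96 h). Ccdc25 (5 of 14), Trim24, a nuclear receptor coregulator (5 of 18), and Kdm4b, a histone lysine demethylase (4 of 13), followed, and their crossed pairings gave between 0 and 2 regions in either direction. The crossed pairings gave more at the other two, with 2 higher (A) and 2 higher and 3 lower (B) at Esr1, and 3 higher and 2 lower (A) and 1 higher (B) at Avpr1a. Among the strongest intervals 3 of 15 Avpr1a regions were lower, Esr1 had 1 lower and 1 higher of 16, and the other 3 genes had 0 lower, with 1 higher at Ccdc25.

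Gene lists of liver biology lay on both sides of the background. Of regions nearest to the hepatocyte identity factors (Hnf4a, Foxa2, Prox1 and others), 56 of 416 (13.5%) were higher and 16 (3.85%) lower, against 9.77% and 4.31% of all tested regions and 48 and 16 in pairing B. From the strongest intervals 28 of 195 (14.4%) were higher and 19 (9.74%) lower, so both shares were above those of all regions there. The TGF-β and Hedgehog list gave 47 higher and 12 lower of 326, against 38 and 7 in pairing B, and 12 and 6 of 146 among the strongest intervals. Fetal and progenitor genes gave 29 higher and 15 lower of 236, against 6 and 14 in pairing A and 34 and 5 in pairing B. Among the strongest intervals they gave 20 higher (19.05%) and 7 lower of 105, beside 7.7% and 7.48% of all regions there. The other functional lists lay between 6.38% and 12.9% higher, from urea cycle and amino acid catabolism (12 of 188) to growth factor receptors (32 of 249). Their lower shares ran from 1.02% (cell cycle inhibitors, 1 of 98) to 7.84% (secreted plasma proteins, 16 of 204), beside 4.31% of all tested regions, with cytochrome P450 genes at 7.03% (9 of 128). Regions of secreted plasma proteins gave 21 lower in pairing A and 6 in pairing B, and among the strongest intervals 7 of 84 were higher and 12 (14.3%) lower, beside 7.48% of all regions there. Lists for the proliferating state showed no excess of lower calls, with proliferation genes at 12 higher and 3 lower of 107 and immediate early and AP-1 genes at 24 higher and 9 lower of 226.

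Within these lists, some genes had many more higher than lower regions. Over all tested regions higher calls were also the more frequent, with 9.77% higher and 4.31% lower. Among the strongest intervals the shares were 7.7% and 7.48%. Sox9, a factor of progenitors and bile duct cells, had 7 higher and 0 lower of 46, and 9 higher and 1 lower of 28 among the strongest intervals, with 0 and 4 higher in the crossed pairings. Tgfb2, a TGF-β ligand, had 7 higher and 0 lower of 18, against 0 and 1 higher in the crossed pairings, but 0 of 6 in either direction among the strongest intervals. Foxa2 had 10 higher and 1 lower of 51, against 1 and 3 higher, but 5 higher and 3 lower of 34 among the strongest intervals. Gli2, a Hedgehog effector, had 6 higher and 0 lower of 39, against 1 and 4 higher, and 2 higher of 20 among the strongest intervals. Myc had 10 higher and 3 lower of 73, while pairing B also gave 10 higher, and 1 higher of 31 among the strongest intervals. These genes were picked from the lists by their counts.

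Promoters of listed genes were called in few cases. Of 278 with a region, 17 (6.12%) were higher and 2 (0.72%) lower at 96 h, beside 3.83% and 2.74% of all coding promoters, against 13 and 3 in pairing A and 8 and 6 in pairing B, so the count was not far from that between mixed lists. With the strongest intervals 17 of 224 (7.59%) were higher and 11 (4.91%) lower, beside 4.75% and 4.43% of all coding promoters there. The crossed pairings gave 19 and 6 (A) and 6 and 20 (B). The largest gap was at Tat, the tyrosine aminotransferase gene, which had no interval at 48 h and stood at 69.7 and 61.7 at 96 h. The 0 h lists gave 73.1 and 67.4 for Tat, and the 72 h lists 51.6 and 77.3. Igf2, a fetal growth factor, had none at 48 h and stood at 53.2 and 61.3 at 96 h, with 0.79 and 40.7 at 0 h. Cyp2c50 (44.2 and 51.5 at 96 h), Slc1a2, Cyp1a2 and Actb also had no interval at 48 h. Fgg, a fibrinogen chain, stood at 45.5 and 62.6 at 48 h and at 87.9 and 79.7 at 96 h, and Cdh1, the E-cadherin gene, at 51.2 and 47.0 and at 75.6 and 76.0. Cps1, the entry enzyme of the urea cycle, had 49.8 and 49.7 at 48 h and 64.7 and 66.98 at 96 h, and Axin2, a Wnt feedback gene, 78.0 and 72.7 and then 89.1 and 92.4.

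The remaining higher promoters were Prox1, Junb, Krt18, Insig1, Tnfrsf12a, Dbp and Acaca, with gaps of 10.3 to 25.5 points. Junb, an AP-1 member, stood at 44.4 and 0 at 48 h and at 76.2 and 64.9 at 96 h. The lower ones were Des, a muscle and stellate cell filament (22.01 and 49.4 at 48 h, 0 and 4.41 at 96 h), and Igf2bp3, a fetal RNA-binding protein (54.3 and 61.0, then 17.4 and 40.1). Among the strongest intervals 6 of the 17 higher ones stayed called, namely Fgg, Tnfrsf12a, Insig1, Cdh1, Axin2 and Junb.

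The labelled cell type was checked on the promoters of marker genes. Hnf4a, the master regulator of hepatocytes, stood between 95.4 and 97.6 in all 4 lists, and 9 of 10 hepatocyte markers had a promoter region, while Alb had none. Of these 9 promoters 6 and 8 had an interval at 48 h and 9 and 9 at 96 h, with medians of 9.48 and 67.2 and of 69.7 and 61.7. Of all regions nearest to the 10 hepatocyte markers, 12 were higher and 10 lower of 169, and among the strongest intervals 3 were higher and 9 lower of 60, beside 7.48% lower of all regions there. Markers of other liver cells with a promoter region were 1 of 5 for Kupffer cells, 3 of 5 for endothelial cells, 3 of 5 for stellate cells, 3 of 4 for cholangiocytes and 1 of 4 for lymphocytes or neutrophils. Among them Lrat and Col1a1 of stellate cells and Epcam of cholangiocytes stood between 74.6 and 97.9 in all 4 lists, while Des of stellate cells was called lower. Endothelial promoters had lower medians, 36.3 and 20.3 in the 48 h lists, then 28.6 and 41.0 in the 96 h lists. In the same order, the Kupffer cell promoter had 42.7 and 34.2, then 4.24 and 40.2. That of lymphocytes or neutrophils had 0 and 14.0, then 34.0 and 0. The promoters of Clec4f, Adgre1, Vsig4, Stab2, Krt19 and Ptprc had no tested region. Of regions nearest to cholangiocyte markers 7 of 57 (12.3%) were higher and 0 lower, all 7 at Sox9, beside 9.77% and 4.31% of all tested regions. The stellate cell markers gave 5 higher and 2 lower of 32, the endothelial markers 6 and 3 of 71, the Kupffer cell markers 1 and 0 of 16 and those of lymphocytes or neutrophils 2 and 0 of 12. The part of other cells in the results was not tested.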

How the data were processed

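Peak lists from bulk ATAC-Seq of hepatocytes at 48 h (n = 2) and 96 h (n = 2) after PHx were compared, with 0 h and 72 h (n = 2 each) beside them. Per the study's methods, the authors trimmed reads, aligned them to mm10 with Bowtie2, removed PCR duplicates and called peaks with MACS2 in the ENCODE pipeline. The list names state Tn5-shifted reads, a p threshold of 0.01, a cap on the number of peaks and blacklist filtering, with peaks called per library. The build mm10 is also in the submitters' processing notes. For each peak the deposited columns hold a score for display, the fold enrichment (a ratio to background), the −log10 p-value, the −log10 q-value and the summit position, all made by the authors' peak caller. The deposited −log10 p ranked intervals, while the deposited fold enrichment and −log10 q entered alternatives. The score was not used. How reads that map to several places were handled is not given in the sources used here. The study's own test needs read counts, which the lists do not hold, and depth is unknown, so no interval or count model was computed.

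Lines with the same interval were collapsed to the one with the highest −log10 p. Intervals that overlapped by at least 1 bp were merged over the 4 lists. A region's percentile in a list was that of its strongest interval. Genes and 77200 TSS came from GENCODE M21 basic, and a region was given to the nearest of 41433 coding TSS. tRNA genes came from the RefSeq annotation of GRCm38.p6. The 20 motifs were sought on both strands as fixed letters. Matches of different motifs may overlap. The regions named were the 6 of each direction with the largest gap, the genes the 12 of each direction with most called regions and none opposite, and the promoters those called among 307 listed genes, of which 304 matched. The comparison, its members, the gene lists and the motifs were chosen with earlier results of these data known. Scripts were tested on simulated data. Python 3.11.15, numpy 2.4.6, pandas 2.3.3, scipy 1.17.1 and matplotlib 3.10.9 were used. Alternatives covered the gap, list length, the q threshold, ranking by fold enrichment, summit windows, wide regions, the replicate block, promoter and motif windows, the distance to a TSS and leaving out each list.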

Additional observations from a re-analysis of the deposited data

How the results depend on the processing

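Counts of called regions moved with the settings, while in each setting run more tRNA gene regions were lower than higher and the AP-1 share was larger in lower than in higher regions. With any gap above 0, 24167 regions were higher and 14042 lower, 740 and 152 genes had several such regions, and tRNA gene regions gave 7 higher and 133 lower. With a gap of at least 20 points these values were 5987 and 2218 regions, 238 and 16 genes, and 32 lower tRNA gene regions. Regions with an interval in all 4 lists, an alternative chosen after seeing the data, gave 2928 higher, 1481 lower and 39 lower tRNA gene regions. The 50000 strongest intervals gave 4049 higher regions and 66 and 73 genes, and lists cut to the length of the shortest gave 246 and 106 genes. A q under 0.05 gave 24 genes with several lower regions, and assignment within 50 kb gave 221 genes with several higher regions.

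Leaving out 1 list at a time gave 12325 to 25919 higher and 7740 to 17360 lower regions. Without 96 h replicate 1 the lower regions (17360) outnumbered the higher ones (12325), so the direction of the excess rested on that list. Higher counts of 25919, 17276 and 17037 came with 48 h replicate 2, 96 h replicate 2 or 48 h replicate 1 left out, and lower counts of 7740, 8251 and 13932. Genes with several regions ranged from 210 to 1350 higher and from 33 to 550 lower, with 210 and 550 when 96 h replicate 1 was left out, 1350 higher for 48 h replicate 2, 757 and 89 for 96 h replicate 2, and 211 lower for 48 h replicate 1. tRNA gene regions ranged from 0 to 3 higher and 72 to 87 lower. The AP-1 difference ranged from −4.19 to −2.78 percentage points, C/EBP from 0.26 to 0.70, FOXA from 0.55 to 0.69, CTCF from −3.12 to −0.00691 and HNF4 from −0.000575 (without 96 h replicate 2, a reversal) to 0.40. The promoter difference ranged from −3.24 to −0.20, the 0 h level from −0.52 (without 96 h replicate 1, a change of sign) to 11.2 and the 72 h level from −2.47 (without 96 h replicate 1, a reversal) to 7.85 points.

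The promoter difference was −2.19 with any gap, −0.63 in the strongest intervals, −3.12 with q under 0.05, −7.40 in 200 bp around summits and −2.65 within 500 bp. The 0 h level, the mean difference of the 2 lists, was −1.93 with any gap (a change of sign), and the 72 h level −1.95 (a reversal), 15.8 with a gap of 20 and 17.2 around summits. AP-1 gave −3.77 with any gap and −3.90 around summits. C/EBP gave 0.59 with any gap, 0.99 with a gap of 20, 1.42 in the strongest intervals, 1.204 with q under 0.05 and 0.46 in 400 bp windows. FOXA gave 1.78 in the strongest intervals, 0.83 around summits, 0.91 in 400 bp windows and 0.28 in distal regions, the last chosen after seeing the data. CTCF gave −6.63 in the strongest intervals. Around summits 2 tRNA gene regions were higher. The cause of these shifts was not tested.

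Replicate numbers were shared by the groups, and the deviations of same-numbered lists from their group means correlated at −0.0467 over 110952 regions. With 2 lists per time, this value cannot show whether same-numbered lists shared a batch or handling. The replicate block gave 13963 higher and 6569 lower regions, 66 genes with several lower regions and 68 lower tRNA gene regions. Depth limits all calls, since a missing interval can mean a weaker or a shallower signal.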
